A study of Mus musculus with 8 samples.

Results

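The pre-mRNA splicing machinery was followed through 66 protein-coding genes of mouse embryonic stem cells in which a subunit of the chaperonin CCT was knocked down. They are the genes whose symbols begin with Srsf, Hnrnp, Sf3a, Sf3b, Snrp followed by a letter from a to g or a number, U2af or Prpf followed by a number, with Snrpn left out. Of the 19896 genes listed in both deposited tables, 66 met this rule, and 1 more matching gene, U2af1l4, was not analysed here. By role they are 11 SR proteins, 20 hnRNP proteins, 7 Sm proteins, 4 other proteins of the U1 and U2 particles, 2 subunits of U2AF, 9 subunits of SF3a and SF3b, and 13 PRPF proteins.

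The spliceosome is built anew on each intron from small nuclear ribonucleoproteins (snRNPs). Sm proteins form the ring around the snRNAs, U1 marks the start of an intron, U2AF and U2 with SF3a and SF3b mark the branch site and the intron's end, and PRPF proteins of the U4/U6.U5 tri-snRNP and of later complexes carry the reaction through. SR proteins mostly favour and hnRNP proteins often oppose the use of an exon, and many of both kinds regulate their own mRNAs. In embryonic stem cells, lowered splicing is known to favour a state that resembles the totipotent early embryo.

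E14 mouse embryonic stem cells carried a pLKO-Tet-On vector with puromycin resistance that expresses a short hairpin RNA under doxycycline. The 8 libraries form 4 groups of 2, namely hairpin against Cct7 (Cct7 KD), its control (Cct7 KD Ctr), hairpin against Cct5 (Cct5 KD) and its control (Cct5 KD Ctr). Controls carried the empty vector, and all cells, controls included, had 14 days of puromycin at 0.5 µg/ml, with positive clones picked, and then 2 days of doxycycline at 2 µg/ml in serum and LIF. CCT folds actin, tubulin and other proteins, and the study asked whether CCT5 and CCT7 bar the way from pluripotency to totipotency. Nothing says that replicates are separate cultures or clones, so p-values measure the spread between these libraries, which may be technical.

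Values are FPKM (fragments by transcript length and by all fragments mapped), as deposited, and 6 libraries held 1.89e+07 to 5.48e+07 fragments by the step of their values. At these depths, 1 fragment on a 1 kb transcript is worth 0.0183 to 0.0530 FPKM. The targets fell as labelled, Cct7 to 5.86% of control in Cct7 KD and Cct5 to 19.6% in Cct5 KD. Summed over 6 pluripotency genes, the level was 3528 to 3745 FPKM in the 4 controls, 865 and 869 in Cct7 KD, and 1923 in each Cct5 KD library. Over 5 genes of 2-cell-like cells, it was 15.8 to 16.9 FPKM in the controls, 68.8 and 67.2 in Cct7 KD, and 78.3 and 76.4 in Cct5 KD. These Cct5 KD sums are little more than the multiple of the Cct7 KD values described in the next paragraph. No separate rise of the 2-cell-like genes in Cct5 KD is therefore read from them, and their remainder was not tested as a set. Of 8 fibroblast (feeder) markers, 4 were in the tables, none at 0, and their sum lay between 7.93 and 11.6 FPKM in all 8 libraries. Most of that sum is Thy1, at 59.5% of control in Cct7 KD and 83.4% in Cct5 KD, while the others were higher than control, Pdgfra at 281% and 425%, Col1a2 at 396% and 297% and Col1a1 at 129% and 231%, all at or below 2.24 FPKM. The part of these shifts of cell state in the changes described here was not tested, and in bulk RNA fewer cells of a type cannot be told apart from less RNA per cell. Hprt, looked up after its values were seen, stood at 159 to 163 FPKM in the controls and 0.781 to 1.44 in the knockdowns. Some E14 sublines lack Hprt, and a difference of cell origin between knockdowns and controls cannot be told apart from the knockdown here.

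One more property of the tables bears on every result below. In all 66 genes, as in 19881 of the 19896, each Cct5 KD value is at least 1.125 times its namesake in Cct7 KD (library 1 with 1, 2 with 2), and 1.125 is also the most common ratio of the columns. That multiple makes up 76.0% and 75.5% of the summed FPKM of the 66 genes in Cct5 KD 1 and 2. Cct5 KD is thus not independent of Cct7 KD, and no depth could be found for it. Its values are given as deposited and, beside them, as the remainder after 1.125 times the Cct7 KD value was subtracted. Cct7 KD, which needs no such step, is described first.

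The deposited scale matters too. FPKM totals were 4.73e+05 and 4.72e+05 in Cct7 KD but 7.46e+05 and 7.44e+05 in Cct5 KD, against 4.90e+05 to 4.97e+05 in the controls. Changes are therefore given on the deposited scale and after median-of-ratios scaling, which divides each library by its typical ratio to the other libraries and is called scaled below. The ratio is a median over all genes above 0 in every library of the fit. For Cct7 KD the divisors were 1.09 and 1.10, against 0.921 and 0.919 for its controls, so this scaling lowers Cct7 KD. The FPKM totals go the other way, and scaling to a common FPKM total raises Cct7 KD. Levels of the remainder are unscaled FPKM, but every change given for it is scaled. In its fit against Cct5 KD Ctr, the scaling divisors stood at 0.620 and 0.626 for the remainder and 1.62 for both controls. A remainder level below control in FPKM can therefore go with no called change or with a rise. A change is a difference of log2(FPKM + 1) from limma, which understates changes of low genes, and it counts as called at a Benjamini-Hochberg adjusted p under 0.05 over all genes tested.

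The 66 genes were highly expressed. Mean control levels ran from 1.12 FPKM for Srsf12 to 1823 FPKM for Hnrnpa1, with a median of 79.9 FPKM, against 8.42 FPKM for the median gene tested. All 66 passed the minimum mean of 1 FPKM, and 63 stood at 10 FPKM or more in the controls. Hnrnpa1, the Sm genes and others have processed pseudogenes of near-identical sequence, and how fragments matching several copies were counted is not stated.

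As a share of all FPKM in a library, which no scaling factor alters, the 66 genes took up 2.01% in both Cct7 KD Ctr libraries and 1.72% and 1.70% in Cct7 KD. In the other table they took up 2.07% and 2.05% in Cct5 KD Ctr and 1.62% and 1.61% in Cct5 KD, and 1.35% and 1.37% of the remainder. Knockdown libraries lay below both of their controls in each case. Most of the shortfall was in the hnRNP genes, which held 1.17% and 1.16% of Cct7 KD Ctr and 0.940% and 0.925% of Cct7 KD. Most of that came from Hnrnpa1 alone, which went from 1857 and 1858 to 1008 and 980.2 FPKM. The hnRNP sum, Hnrnpa1 included, went from 5736 and 5757 to 4446 and 4362 FPKM. The SR genes held 0.280% and 0.282% of Cct7 KD Ctr and 0.282% and 0.279% of Cct7 KD, so that these values overlap. In the other table the SR share was 0.307% and 0.297% in Cct5 KD Ctr against 0.255% and 0.253% in Cct5 KD, and those groups do not overlap.

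**Figure D1:**
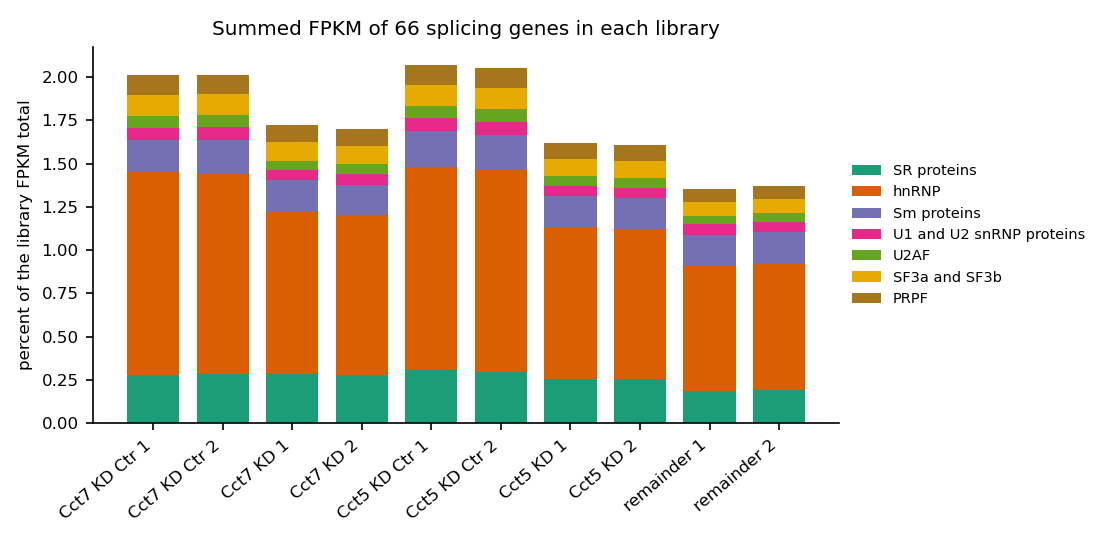
Summed FPKM of the 66 genes as a percent of the FPKM total of each library, stacked by role; the last bars are the remainder of Cct5 KD. The 4 control libraries stand at 2.01% to 2.07%, Cct7 KD at 1.70% and 1.72%, and Cct5 KD at 1.61% and 1.62%.

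In Cct7 KD, 35 of the 66 genes fell and 16 rose on the deposited scale by limma, and 15 were not called. Among all 13588 genes tested, 32.0% were lower and 49.3% higher, so the balance of the splicing genes (53.0% and 24.2%) is turned round. After scaling, 56 fell, 6 rose and 4 were not called (84.8% and 9.09%), against 44.0% lower and 37.1% higher of all genes. Scaled to a common FPKM total instead, 30 fell and 24 rose, against 29.2% and 52.6%.

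Without Cct7 KD 1, 10 genes rose on the deposited scale. The same 30 genes fell as deposited and under both scalings (29.4% of all genes did so), and the same 6 rose on all these scales (37.2%). The 6 are Srsf12, Srsf9, Hnrnpll, Hnrnpul2, Hnrnpr and Prpf18. Another 7 that rose on the deposited scale fell after scaling, namely Srsf6, Srsf11, Hnrnpk, Snrpb, Sf3a3, Prpf19 and Prpf38a. The median change of the 66 genes was −0.11 on the deposited scale, with 0.15 for all genes and 0.07 for the 7039 genes that average 10 FPKM or more. After scaling these medians were −0.35, −0.07 and −0.17. On the deposited scale 57 of 66 changes lay below the change of the median gene, and after scaling 58 did. Against the median of the genes that average 10 FPKM or more, which are nearer to the 66 in level, 47 did on each scale. Of those genes 38.7% were lower and 47.0% higher on the deposited scale, and 53.5% and 32.6% after scaling.

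The changes were mostly modest: 8 genes fell and 3 rose by at least 1.5-fold on the deposited scale (15.0% and 27.6% of all genes). The 8 are Hnrnpa1, Hnrnpdl, Hnrnpl, Hnrnpab, Snrpa1, Sf3b1, Prpf8 and Prpf40b, and the 3 are Srsf12, Hnrnpll and Hnrnpul2. Both Cct7 KD libraries lay below both controls in 38 genes and above them in 22, and overlapped them in 6; of all genes, 36.5% were lower and 54.1% higher in this sense.

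**Figure D2:**
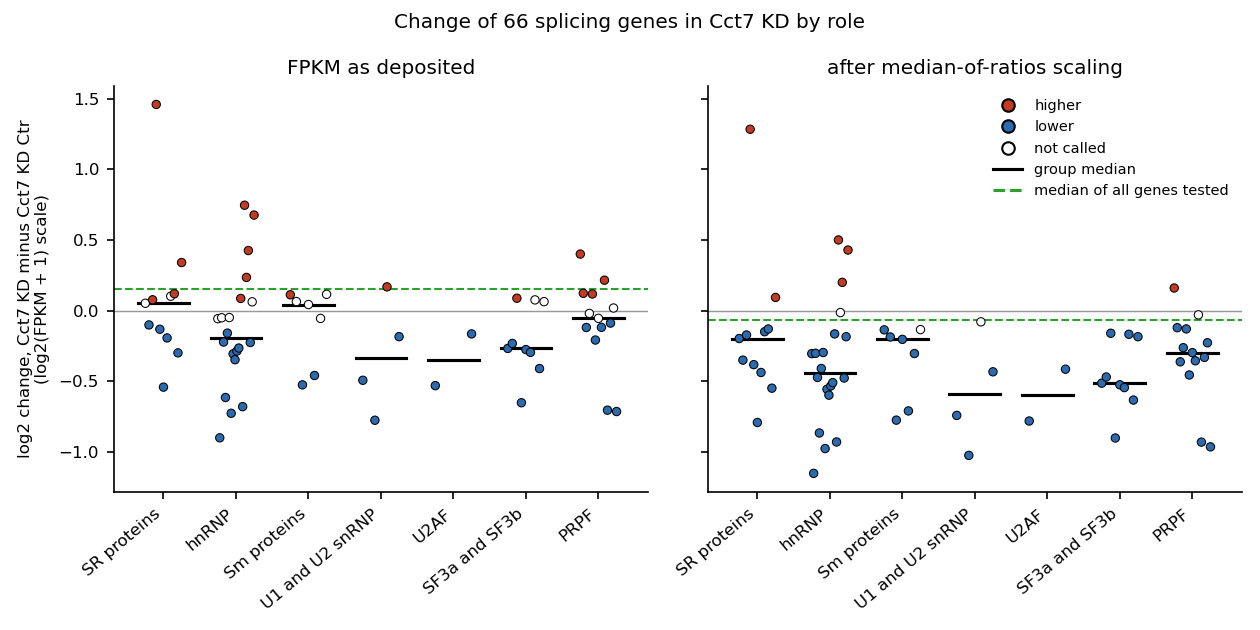
Change of each of the 66 genes in Cct7 KD (y axis, log2(FPKM + 1) scale) by role, on the deposited scale (left) and after scaling (right), coloured by the limma call, with the median of each role (black) and of all genes tested (green). The median of the SF3a and SF3b genes is −0.27 and −0.51, that of the SR genes 0.05 and −0.20.

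Among the SR proteins, RNA-binding factors with a domain rich in arginine and serine, 5 of 11 fell and 4 rose in Cct7 KD by limma on the deposited scale, and 9 fell and 2 rose after scaling. Their median change was 0.05 and −0.20 on these scales. Scaled to a common FPKM total instead, 3 fell and 6 rose, with a median of 0.11. For these counts and those of the roles below, the shares of all genes are 32.0% lower and 49.3% higher as deposited. After scaling they are 44.0% and 37.1%, and with a common FPKM total 29.2% and 52.6%.

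Srsf12 (ENSMUSG00000054679, chr4:33208991-33233340 on the plus strand, mm10), a close relative of Srsf10, made the largest rise of the 66. It stood at 1.22 and 1.26 FPKM in Cct7 KD Ctr and at 5.34 and 4.97 FPKM in Cct7 KD. Both knockdown libraries were far above both controls, at 417% of the control mean, and the change of 1.46 (SE 0.0726, adjusted p = 2e-05 by limma) was 1.28 after scaling. In the other table Srsf12 went from 0.889 and 1.12 FPKM to 7.32 and 7.01 FPKM, and the remainder was 1.31 and 1.42 FPKM. Its change in Cct5 KD was 2.03 on the deposited scale, 1.45 scaled and 0.98 in the remainder, each called. Srsf12 is also the scarcest of the 66, and it stayed far below Srsf10, with a ratio of 0.013 in both Cct7 KD Ctr libraries and 0.059 and 0.057 in Cct7 KD.

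Srsf9 (ENSMUSG00000029538, chr5:115327177-115333080, plus), a short SR protein related to Srsf1, was at 46.0 and 45.6 FPKM in Cct7 KD Ctr and 58.6 and 57.9 FPKM in Cct7 KD. The groups do not overlap, and the rise of 0.34 (adjusted p = 9.8e-05 by limma) was 0.09 after scaling. In Cct5 KD it rose by 0.79 on the deposited scale, was not called after scaling (−0.03), and fell in the remainder (−0.15). Srsf6, another classical SR protein, was at 97.7 and 96.7 FPKM in Cct7 KD Ctr and 104 and 107 FPKM in Cct7 KD, a rise of 0.12 that changed sign after scaling (−0.13) and was not called without Cct7 KD 2 (0.10).

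Srsf3 (ENSMUSG00000071172, chr17:29032628-29043373, plus), the smallest of the classical SR proteins and a factor in mRNA export, made the largest fall of its class. Its levels were 197 and 199.8 FPKM in Cct7 KD Ctr and 137 and 135 FPKM in Cct7 KD. All knockdown values lay below all control values, at 68.5% of the control mean, with a change of −0.54 (SE 0.0248, adjusted p = 1.6e-05 by limma) that was −0.79 scaled. Srsf3 was also 1 of 5 genes of the 66 that fell in Cct5 KD on the deposited scale, from 224 and 219 FPKM to 196 and 193 FPKM, and its remainder gave −1.02.

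Srsf7, which shares its targets in part with Srsf3, was at 149 and 155 FPKM in Cct7 KD Ctr and 122 and 125 FPKM in Cct7 KD, a change of −0.30 (adjusted p = 0.00032 by limma). Srsf4 fell by 0.19, from 37.2 and 36.7 to 31.9 and 32.5 FPKM. Srsf2, an exon enhancer factor that is often mutated in myeloid disease, was at 208 and 206 FPKM in Cct7 KD Ctr and 193 and 184 FPKM in Cct7 KD. Its change of −0.13 (adjusted p = 0.011 by limma) was not called after scaling to a common total (−0.07), nor without Cct7 KD 2 (−0.10). In Cct5 KD both Srsf7 (0.15) and Srsf2 (0.17) were higher on the deposited scale but lower after scaling (−0.68 and −0.65) and in the remainder (−0.60 and −0.86).

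Among the 20 hnRNP genes, whose proteins coat nascent transcripts, 11 fell and 5 rose in Cct7 KD on the deposited scale by limma (32.0% and 49.3% of all genes). After scaling 16 fell and 3 rose (44.0% and 37.1%). Their median change was −0.19 and −0.44. With a common FPKM total 11 fell and 6 rose (29.2% and 52.6%).

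Hnrnpa1 (ENSMUSG00000046434, chr15:103240432-103246692, plus), the most abundant of the 66 and a well-known repressor of exons, fell the most on the deposited scale. It stood at 1857 and 1858 FPKM in Cct7 KD Ctr and at 1008 and 980.2 FPKM in Cct7 KD, 53.5% of the control mean. With knockdown values so far below the controls, the change was −0.90 (SE 0.0336, adjusted p = 8.4e-06 by limma) and −1.15 scaled. In the Cct5 table it was at 1795 and 1783 FPKM in the controls, 1656 and 1626 FPKM in Cct5 KD, and 522 and 524 FPKM in the remainder. The change in Cct5 KD was −0.12 on the deposited scale, −0.95 scaled and −0.40 in the remainder after its scaling, each a called fall.

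Hnrnpl (ENSMUSG00000015165, chr7:28808541-28822266, plus), which binds CA-rich RNA, and its paralog Hnrnpll (ENSMUSG00000024095, chr17:80029487-80062334, minus) went opposite ways in Cct7 KD. Hnrnpl was at 186 and 185 FPKM in Cct7 KD Ctr and 112 and 119 FPKM in Cct7 KD, with a change of −0.68 (adjusted p = 2.1e-05 by limma). Hnrnpll was at 33.0 and 32.3 FPKM in Cct7 KD Ctr and 54.4 and 56.5 FPKM in Cct7 KD, with a change of 0.75 (adjusted p = 1.3e-05 by limma). Neither gene's groups overlap, and both directions held after scaling (−0.93 and 0.50). In Cct5 KD, Hnrnpl was not called on the deposited scale (−0.06) and was lower scaled (−0.88), while Hnrnpll was higher on both (1.17 and 0.35). The remainder of Hnrnpl fell (−0.60) and that of Hnrnpll was not called (0.06).

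Hnrnpul2 (ENSMUSG00000071659, chr19:8820010-8834143, plus), a relative of the nuclear matrix protein encoded by Hnrnpu, was at 46.4 and 47.1 FPKM in Cct7 KD Ctr and 75.3 and 75.2 FPKM in Cct7 KD. Replicates were nearly identical and the groups far apart, with a change of 0.68 (SE 0.0258, adjusted p = 8.8e-06 by limma) that was 0.43 scaled. It rose in Cct5 KD on both scales (1.13 and 0.31) and in the remainder (0.17). Hnrnpr, from 7.18 and 7.22 to 9.87 and 10.2 FPKM in Cct7 KD, rose by 0.43, by 0.20 scaled, and by 0.34 in the remainder of Cct5 KD.

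Hnrnpdl, a paralog of Hnrnpd (which encodes the AU-rich element binder AUF1), was at 161 and 167 FPKM in Cct7 KD Ctr and 99.8 and 97.1 FPKM in Cct7 KD. That made a change of −0.73 (adjusted p = 1.2e-05 by limma), while Hnrnpd itself was not called on the deposited scale (−0.05). After scaling both were called lower, Hnrnpdl by −0.98 and Hnrnpd by −0.30. In the remainder of Cct5 KD both were lower too (−0.37 and −0.98). Hnrnpab, picked out after its values were seen, was at 389 and 402 FPKM in Cct7 KD Ctr and 257 and 258 FPKM in Cct7 KD. In the Cct5 table it was at 426 and 429 FPKM in the controls and 335 and 336 FPKM in Cct5 KD, and its remainder of 45.5 and 45.3 FPKM gave the largest fall of the 66 there (−1.84).

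**Figure D3:**
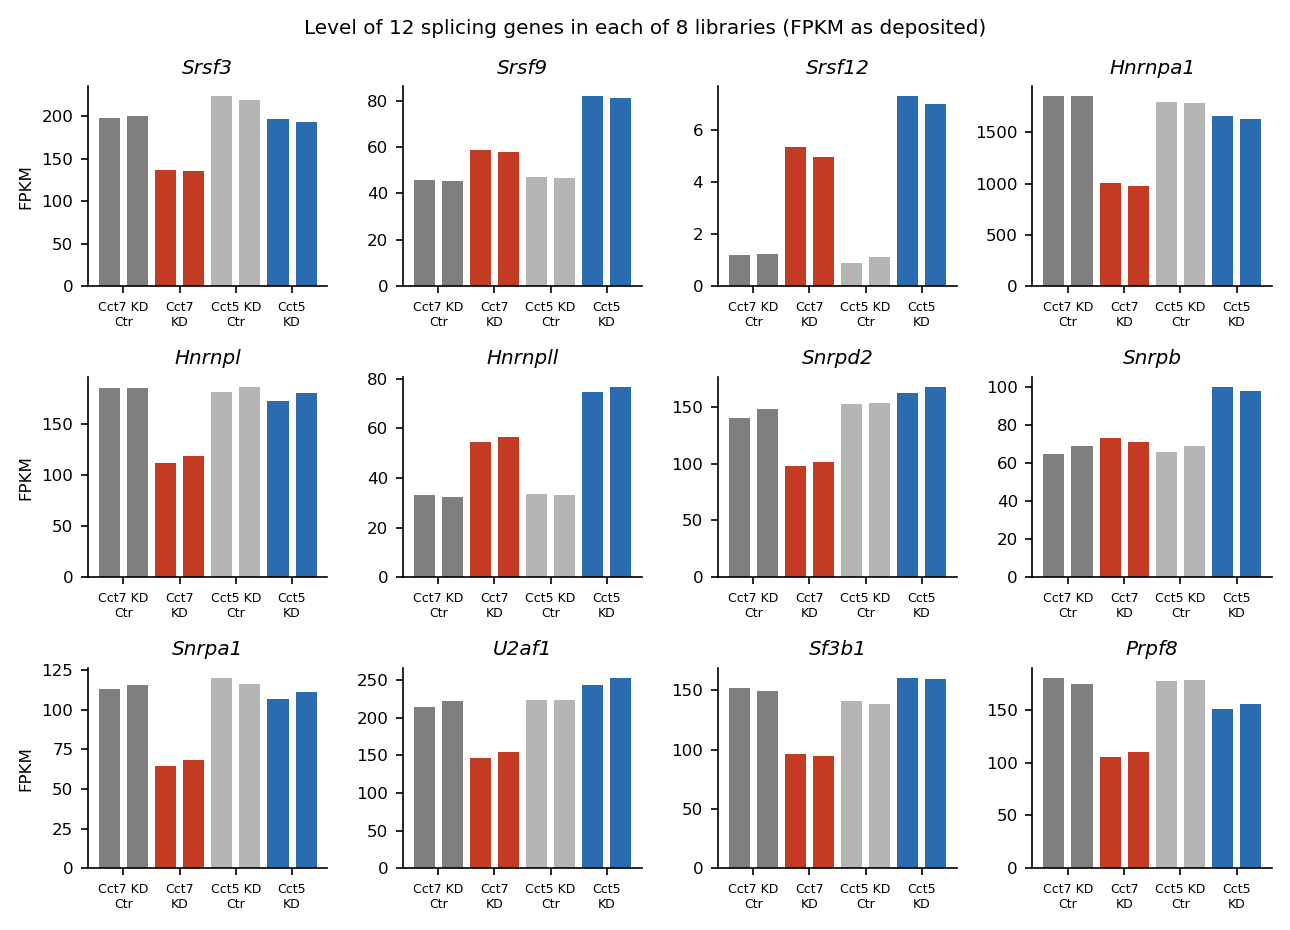
FPKM as deposited (y axis, from 0) of 12 genes in each of the 8 libraries, 1 bar per library. Srsf12 and Hnrnpll are higher in both Cct7 KD libraries than in their controls, and Hnrnpa1 (1008 and 980.2 against 1857 and 1858 FPKM), Sf3b1 and Prpf8 lower. Of the genes low in Cct7 KD, Snrpd2, U2af1 and Sf3b1 are above their controls in Cct5 KD. Srsf3, Hnrnpa1, Hnrnpl, Snrpa1 and Prpf8 are below them.

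The Sm proteins, which ring the U1, U2, U4 and U5 snRNAs in equal parts, did not move alike. On the deposited scale 2 of 7 fell (Snrpd2 and Snrpe), 1 rose (Snrpb) and 4 were not called by limma in Cct7 KD, and after scaling 6 fell and Snrpg was not called. The 28.6% of Sm genes that fell as deposited is near the 32.0% of all genes, of which 49.3% rose. After scaling 44.0% of all genes fell. With a common FPKM total, 2 Sm genes fell and 4 rose (29.2% and 52.6% of all genes). Snrpd2 (ENSMUSG00000040824, chr7:19149722-19153542, plus) was at 140.2 and 148 FPKM in Cct7 KD Ctr and 97.9 and 101 FPKM in Cct7 KD, 69.2% of the control mean (−0.53, adjusted p = 6.1e-05 by limma). Snrpe was at 282 and 297 FPKM in Cct7 KD Ctr and 218 and 202 FPKM in Cct7 KD (−0.46, adjusted p = 0.00028 by limma). The knockdown libraries of both genes were below both controls. Snrpb (ENSMUSG00000027404, chr2:130171414-130179403, minus), which encodes SmB and regulates an exon of its own mRNA, was at 64.8 and 68.9 FPKM in Cct7 KD Ctr and 73.2 and 71.4 FPKM in Cct7 KD. Its rise of 0.11 (adjusted p = 0.036 by limma) changed sign after scaling (−0.14), and it was not called on the deposited scale without Cct7 KD Ctr 1 (0.07), Cct7 KD 1 (0.09) or Cct7 KD 2 (0.13).

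Within the Sm set, shares do not depend on scaling. Snrpe made up 30.9% and 30.4% of the summed Sm FPKM in Cct7 KD Ctr against 25.4% and 24.5% in Cct7 KD, and Snrpd2 went from 15.4% and 15.2% to 11.4% and 12.2%. Snrpg went the other way, from 12.2% and 12.9% to 14.9% and 15.5%, and so did Snrpd1, from 21.1% and 20.9% to 24.9% and 24.1%. In the remainder of Cct5 KD, Snrpe held 30.9% and 30.3%, close to its 31.0% and 30.7% in Cct5 KD Ctr, and Snrpg held 17.6% and 17.2%, above its 12.5% in both of those controls.

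Of the 4 other U1 and U2 proteins, 3 fell and 1 rose in Cct7 KD on the deposited scale by limma (32.0% and 49.3% of all genes), and 3 fell after scaling (44.0%). Snrpa1 (ENSMUSG00000030512, chr7:66059003-66074587, plus), which encodes the A′ protein of U2, was at 113 and 115 FPKM in Cct7 KD Ctr and 64.3 and 68.0 FPKM in Cct7 KD. Knockdown libraries stood at 58.0% of the control mean (−0.78, adjusted p = 1.5e-05 by limma), and Snrpa1 also fell in Cct5 KD (−0.12) and in the remainder (−0.40). Its partner on the U2 snRNA, the B″ protein gene Snrpb2, was at 56.1 and 59.4 FPKM in Cct7 KD Ctr and 64.9 and 65.1 FPKM in Cct7 KD, a rise of 0.17 that was not called after scaling (−0.08). The U1 genes Snrpa, at 91.3 and 97.3 FPKM against 66.5 and 66.8 FPKM, and Snrpc, at 90.5 and 92.8 FPKM against 81.7 and 79.3 FPKM, fell by 0.49 and 0.18.

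U2AF, the dimer that reads the intron's end, fell as a pair. U2af1 (ENSMUSG00000061613, chr17:31647081-31658892, minus), the small subunit, was at 214 and 222 FPKM in Cct7 KD Ctr and 147 and 154 FPKM in Cct7 KD (−0.53, adjusted p = 6.3e-05 by limma). U2af2 (ENSMUSG00000030435, chr7:5062143-5079938, plus), the large subunit, was at 128 FPKM in both controls and 114 FPKM in both Cct7 KD libraries (−0.17, adjusted p = 0.0012 by limma). No knockdown library reached a control. In the remainder of Cct5 KD the order was reversed, with −0.12 for U2af1 and −0.71 for U2af2.

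The SF3a and SF3b complexes, which hold U2 at the branch site, were mostly lower in Cct7 KD. On the deposited scale 6 of 9 subunits fell, 1 rose (Sf3a3) and 2 were not called by limma (Sf3b4 and Sf3b6), and after scaling all 9 fell, with medians of −0.27 and −0.51. Of all genes, 32.0% fell and 49.3% rose as deposited, and 44.0% fell after scaling. With a common FPKM total, 6 subunits fell and 3 rose (Sf3a3, Sf3b4 and Sf3b6), with a median of −0.21. Of all genes, 29.2% fell and 52.6% rose on that scale. Sf3b1 (ENSMUSG00000025982, chr1:54985169-55027481, minus), the scaffold of SF3b and the target of splicing inhibitors such as pladienolide B, was at 152 and 149 FPKM in Cct7 KD Ctr and 96.0 and 94.6 FPKM in Cct7 KD. At 63.4% of the control mean, with groups well apart, the change was −0.65 (SE 0.0253, adjusted p = 9.3e-06 by limma) and −0.90 scaled. In the Cct5 table Sf3b1 was at 141 and 138 FPKM in the controls, 161 and 159 FPKM in Cct5 KD and 52.8 and 52.7 FPKM in the remainder. It was higher in Cct5 KD on the deposited scale (0.19), lower when scaled (−0.63) and not called in the remainder after its scaling (−0.03, adjusted p = 0.30 by limma).

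Sf3b3, at 112 and 110.0 FPKM in Cct7 KD Ctr and 89.7 and 90.8 FPKM in Cct7 KD, fell by 0.30 there, and its remainder of 19.2 and 18.6 FPKM, against 119 and 120.0 FPKM in Cct5 KD Ctr, gave −1.25 scaled. Sf3a1, added after its values were seen, gave −0.27 in Cct7 KD and −1.18 in the remainder. Sf3b5, a small SF3b subunit, went from 8.87 and 9.47 to 6.69 and 6.60 FPKM in Cct7 KD (−0.41). Sf3a3, at 64.6 and 63.2 FPKM in Cct7 KD Ctr and 67.5 and 68.4 FPKM in Cct7 KD, rose by 0.09 on the deposited scale (adjusted p = 0.027 by limma) and fell by 0.16 after scaling, and the rise was not called without Cct7 KD Ctr 2 (0.07), Cct7 KD 1 (0.10) or Cct7 KD 2 (0.08).

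Promoter sequence set the SF3 genes apart in description. RefSeq promoter windows (GRCm38.p6, 250 bases before to 50 after a transcript start) were found for 57 of the 66 genes, and a core word of ETS-family binding sites, CCGGAAG on either strand, occurred in those of 20 genes (35.1%), against 2683 of 27025 genes (9.93%). Of 7 SF3a and SF3b genes with a window, 6 held it, whereas 2 of 18 hnRNP genes did. The E-box CACGTG occurred in 9 of the 57 (15.8%), none of them SF3, SR or Sm genes, against 8.09% of all genes. The 57 genes' windows were richer in CpG, with a median of 26 CpG per window against 7, and were not matched for it. For the 6 SF3 genes, 30 bases around the word are shown, in the direction of the gene and with the word in capitals.
Sf3a1 (chr11:4160336-4160365, plus): agagggcgggaCCGGAAGtgctcccgcggc
Sf3a2 (chr10:80798648-80798677, plus): cgcctttgctcCCGGAAGggatcgcttcgt
Sf3a3 (chr4:124714760-124714789, plus): cccccaagacaCTTCCGGgacacgcggaac
Sf3b2 (chr19:5295450-5295479, minus): ggattacgcaaCCGGAAGtttctggaagta
Sf3b3 (chr8:110847014-110847043, minus): cccggtgggcgCTTCCGGgcttgcgaggtc
Sf3b6 (chr12:4817519-4817548, plus): gcccCTTCCGGtccgcaatCCGGAAGcgtt
The word lay on the gene's own strand in Sf3a1, Sf3a2 and Sf3b2, on the opposite strand in Sf3a3 and Sf3b3, and on both in Sf3b6. These matches are letters in a window and were not tested for binding or for a tie to expression. On the deposited scale these 6 carriers were mixed in their change in Cct7 KD, from −0.30 for Sf3b3 to 0.09 for Sf3a3. After scaling all 6 were lower, from −0.55 for Sf3b3 to −0.16 for Sf3a3, as were the SF3 genes without the word.

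Of the 13 PRPF genes, 6 fell, 4 rose and 3 were not called in Cct7 KD on the deposited scale by limma (32.0% lower and 49.3% higher of all genes). After scaling 11 fell and 1 rose (44.0% and 37.1%). With a common FPKM total 3 fell and 4 rose (29.2% and 52.6%). Prpf8 (ENSMUSG00000020850, chr11:75486816-75509449, plus), the core protein of the U5 particle around the catalytic RNA, was at 181 and 174 FPKM in Cct7 KD Ctr and 105 and 110.2 FPKM in Cct7 KD. It stood at 60.7% of the control mean, with no overlap, and its change was −0.72 (SE 0.034, adjusted p = 1.8e-05 by limma) and −0.97 scaled. Prpf8 fell in Cct5 KD on the deposited scale as well, from 177 and 179 FPKM to 151 and 156 FPKM (−0.21), and in the remainder (−1.07).

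Prpf40b, a relative of a yeast U1 protein that bridges the ends of the intron, fell from 12.3 and 11.7 FPKM in Cct7 KD Ctr to 6.83 and 7.10 FPKM in Cct7 KD (−0.71, adjusted p = 6.9e-05 by limma), with all knockdown values below the controls. Prpf18, a factor of the second catalytic step, rose from 18.5 and 17.7 to 24.1 and 24.4 FPKM in Cct7 KD (0.40, scaled 0.16), and it was higher in Cct5 KD on both scales (0.91 and 0.12) and in the remainder (0.13). Prpf38b fell by 0.21 in Cct7 KD, from 58.0 and 60.7 to 51.9 and 50.6 FPKM. Prpf19, a ubiquitin ligase of the activated spliceosome, went from 28.5 and 28.1 to 31.4 and 30.4 FPKM, which was a rise of 0.12 on the deposited scale and −0.12 after scaling, with the rise not called without Cct7 KD Ctr 2 (0.11) or Cct7 KD 1 (0.10).

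Ratios between related genes within a library need no scaling. The pairs were chosen after the values were seen, so the ratios are a description. Hnrnpll stood to Hnrnpl as 0.178 and 0.175 in Cct7 KD Ctr but as 0.485 and 0.477 in Cct7 KD. The ratio was 0.185 and 0.177 in Cct5 KD Ctr and 0.292 and 0.284 in the remainder of Cct5 KD. Hnrnpul2 to Hnrnpul1 was 0.912 and 0.962 in Cct7 KD Ctr, 1.46 and 1.43 with the hairpin, 0.999 and 0.994 in Cct5 KD Ctr and 1.15 and 1.13 in the remainder. For these pairs both readouts lay above their controls.

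Hnrnpa2b1 and Hnrnpa1, the core A and B proteins, did otherwise. Their ratio was 0.468 and 0.469 in Cct7 KD Ctr against 0.851 and 0.839 in Cct7 KD, where Hnrnpa2b1 itself (869 and 872 FPKM against 858 and 823 FPKM) was not called on the deposited scale. After scaling Hnrnpa2b1 was called lower in Cct7 KD (−0.30), and so it was in the remainder of Cct5 KD (−0.70). In the Cct5 table the ratio was 0.487 and 0.495 in the controls and 0.391 and 0.404 in the remainder, below the controls. Hnrnpd to Hnrnpdl likewise went up in Cct7 KD, from 0.346 and 0.343 to 0.551 and 0.555, and was down in the remainder, at 0.226 and 0.235 against 0.354 and 0.368 in Cct5 KD Ctr. Hnrnph2 to Hnrnph1 stayed between 0.160 and 0.178 in the 8 libraries and the remainder.

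**Figure D4:**
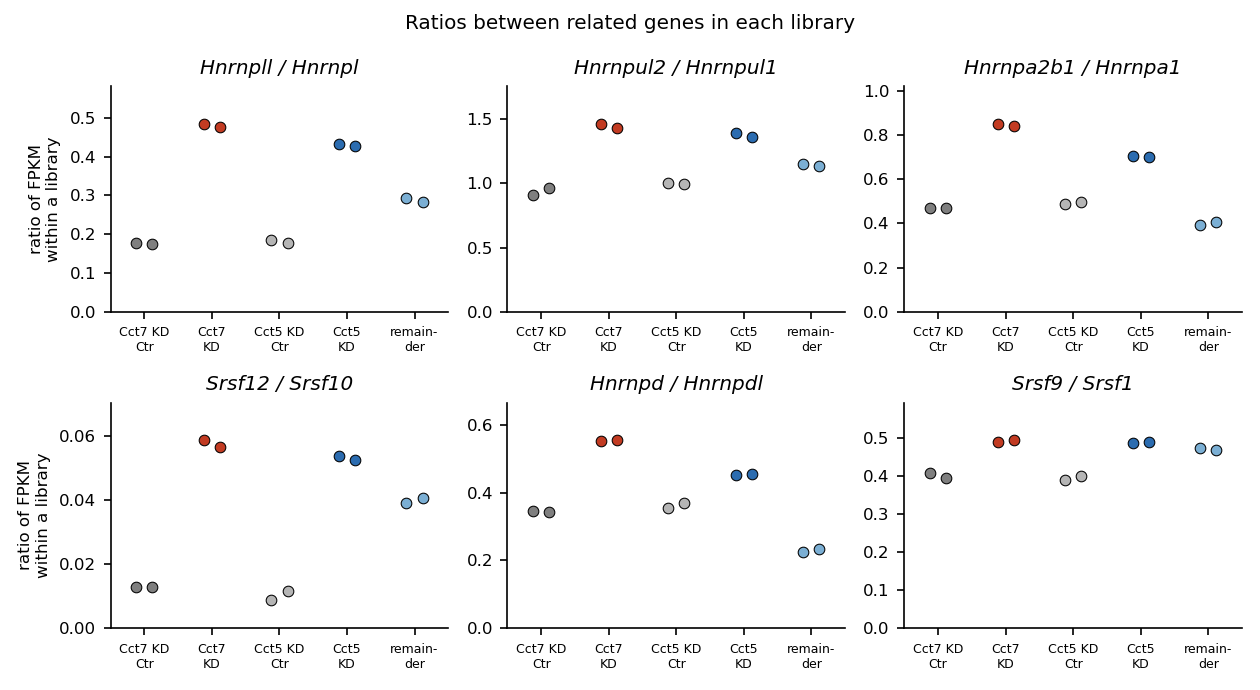
Ratio of FPKM between 6 pairs of related genes in each library (y axis from 0, 1 point per library), with the remainder of Cct5 KD at the right. Hnrnpll to Hnrnpl rises from 0.178 and 0.175 in Cct7 KD Ctr to 0.485 and 0.477 in Cct7 KD; Hnrnpa2b1 to Hnrnpa1 is above its controls in Cct7 KD and below them in the remainder.

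Cct5 KD as deposited gave another picture: 56 of the 66 genes rose, 5 fell and 5 were not called by limma. The background was 78.0% higher and 11.3% lower of 14179 genes, with a median change of 0.68 against 0.38 for the 66. Both Cct5 KD libraries lay above both controls in 57 of the 66 and below them in 7 (81.0% and 13.3% of all genes). The 5 that fell were Hnrnpa1, Hnrnpab, Srsf3, Snrpa1 and Prpf8. After scaling, 58 fell and 5 rose, against 43.7% and 37.7% of all genes, and the medians were −0.44 and −0.05. Scaled to a common total, 47 fell and 12 rose, against 31.8% and 50.4%. The direction of most of the 66 in Cct5 KD thus turns on the scale, while 55 of 66 changes on the deposited scale and 59 after scaling lay below that of the median gene, and 54 on each scale below that of the median gene of at least 10 FPKM. Of such genes 53.8% were lower and 33.4% higher after scaling.

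Measured on the remainder and scaled, 44 of the 66 genes were lower, 12 higher and 10 not called by limma in Cct5 KD, against 43.3% lower and 41.6% higher of 11701 genes. The median was −0.35, with −0.01 for all genes and −0.07 for the genes of at least 10 FPKM. By role, 14 of 20 hnRNP genes, 8 of 11 SR genes, 8 of 13 PRPF genes, 7 of 9 SF3 genes and both U2AF genes were lower, but 3 of 7 Sm genes and 2 of 4 U1 and U2 genes. Since the remainder was formed by subtracting Cct7 KD values, its counts stand beside those of Cct7 KD as a description and not as a replicate.

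In that sense 42 of the 66 genes were lower in Cct7 KD and in the remainder, both scaled (30.8% of all genes), and 4 were higher in both, namely Srsf12, Hnrnpr, Hnrnpul2 and Prpf18 (22.6%). Another 6 were lower in Cct7 KD and higher in the remainder, namely Srsf11, Hnrnpc, Hnrnph3, Snrpc, Prpf38a and Prpf39. The share of all genes with such opposite calls was not counted, so nothing is read from this number. Hnrnpc, which guards against the use of cryptic exons, was at 203 and 207 FPKM in Cct7 KD Ctr, 183 and 184 FPKM in Cct7 KD, 218 and 219.7 FPKM in Cct5 KD Ctr and 101 FPKM in both remainders. Its remainder is below the controls in unscaled FPKM, and the change counted as higher (0.26) is after scaling. Srsf9 was the reverse case, higher in Cct7 KD (0.09) and lower in the remainder (−0.15).

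**Figure D5:**
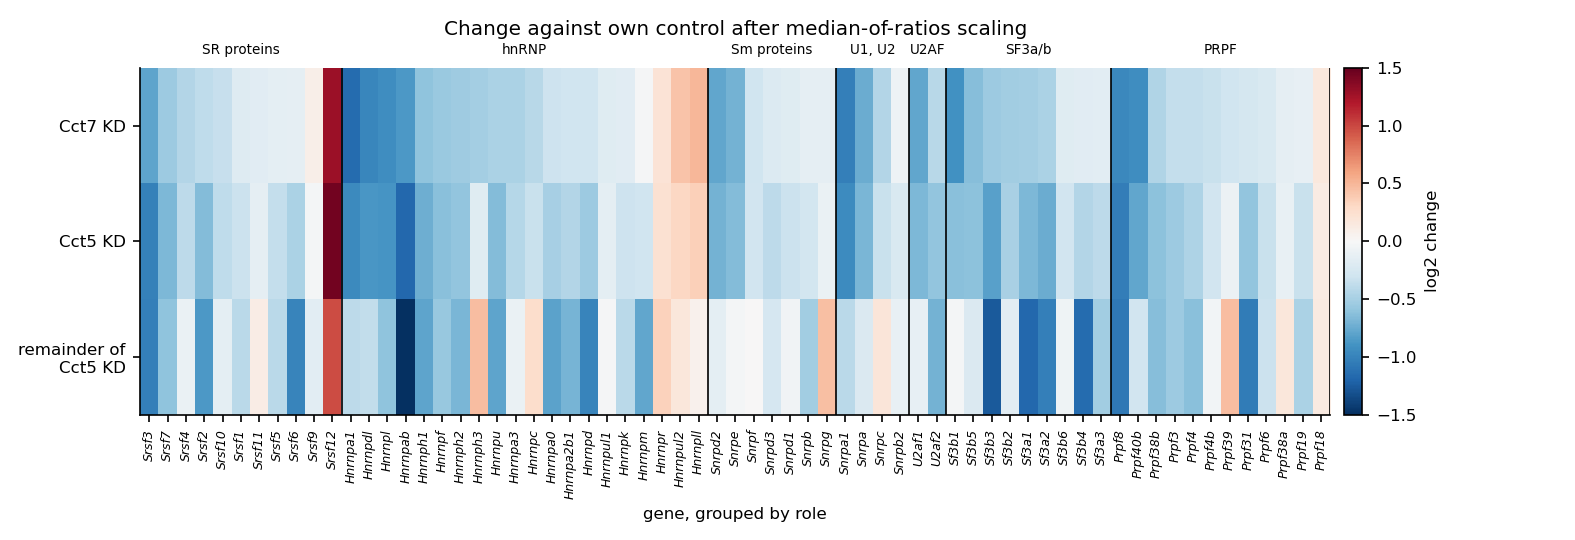
Scaled log2 change of 65 of the 66 genes (columns, by role and ordered by Cct7 KD) in Cct7 KD, Cct5 KD and the remainder of Cct5 KD, each against its own control; colours end at 1.5 either way, and Hnrnpab in the remainder (−1.84) lies beyond. Most columns are blue in all rows, Srsf12 is red in all, and single genes such as Snrpg and Hnrnph3 change colour in the remainder.

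The change itself was compared between the knockdowns in a fit of all 8 libraries, which treats the linked Cct5 KD and Cct7 KD libraries as independent. Its p-values therefore do not have their usual meaning, and the counts are a description. Since each Cct5 KD value is at least 1.125 times its namesake, a higher change in Cct5 KD on the deposited scale is largely set by how the columns are built, and nothing is read from it. On the deposited scale all 66 genes were higher in Cct5 KD relative to control than in Cct7 KD by limma, as were 83.8% of all genes, with medians of 0.47 and 0.49. After scaling, 29 of 66 differed, 26 of them lower in Cct5 KD and 3 higher, against 12.7% and 11.2% of all genes. With the remainder in place of Cct5 KD, 57 differed (74.9% of all genes), 30 lower and 27 higher (35.7% and 39.2%).

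The control groups give the background. Between Cct7 KD Ctr and Cct5 KD Ctr limma called 0 of the 66 genes, as it called 0 of 12762 genes (0.00%), and 26 of 66 had an unadjusted p under 0.05 (39.4%), against 18.0% of all genes. Both Cct7 KD Ctr libraries lay below both of the other controls in 37 of the 66 and above them in 8 (21.6% and 29.5% of all genes). A fit of all 8 libraries called 8 of the 66, of which 7 were lower in Cct7 KD Ctr. Among the 66 genes the largest difference between the control groups was 0.18 on the log2 scale, in absolute value, and among all genes tested it was 1.83. The changes in Cct7 KD of Hnrnpa1 (−0.90), Snrpa1 (−0.78), Hnrnpdl (−0.73), Prpf8 (−0.72) and Sf3b1 (−0.65) were several times as large. Other called changes on the deposited scale were no larger than it. Among the falls these were Srsf2 (−0.13), U2af2 (−0.17), Srsf10, Hnrnpc, Prpf3, Prpf4 and Prpf4b. Among the rises they were Srsf6, Srsf11, Hnrnpk, Snrpb, Snrpb2, Sf3a3, Prpf19 and Prpf38a.

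Other genes of the pathway were read from a list of 142 splicing genes outside the 66, of which 141 were in the tables and 137 were tested. In Cct7 KD, 74 of 137 fell and 42 rose on the deposited scale by limma, and 99 fell and 22 rose after scaling, with medians of −0.11 and −0.36. Of all genes, 32.0% fell and 49.3% rose as deposited, and 44.0% and 37.1% did after scaling. Of the genes that average 10 FPKM or more, 53.5% fell and 32.6% rose after scaling. With a common FPKM total 56 of the 137 fell and 49 rose, with a median of −0.05, against 29.2% and 52.6% of all genes. In the remainder of Cct5 KD, 87 of the 137 fell and 39 rose (43.3% and 41.6% of all genes). Other U1, U2 and branch site factors fell in 16 of 20 cases on the deposited scale and rose in 2 (against 32.0% and 49.3% of all genes). Other regulators of alternative splicing rose in 16 of 33 and fell in 13 (48.5% and 39.4%), which is near the shares of all genes.

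The assembly line of the snRNPs, with the SMN complex and the methylosome, had the lowest median of these sets (−0.33). In Cct7 KD, 9 of its 15 tested genes were lower and 3 higher by limma on the deposited scale (32.0% and 49.3% of all genes). Gemin5, the subunit that binds snRNAs for Sm loading, was at 53.0 and 52.7 FPKM in Cct7 KD Ctr and 19.2 and 18.9 FPKM in Cct7 KD. The knockdown was far below control, with a change of −1.43 (adjusted p = 2e-06 by limma), and Gemin5 fell by 1.02 in Cct5 KD on the deposited scale. Wdr77, of the methylosome, went from 27.8 and 28.2 to 38.1 FPKM in both Cct7 KD libraries, a rise of 0.43 (0.19 scaled), but was −0.10 in Cct5 KD after scaling.

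Beside Prpf8 in the U5 particle, the GTPase gene Eftud2 was at 143 and 139.8 FPKM in Cct7 KD Ctr and 71.7 and 75.2 FPKM in Cct7 KD, a change of −0.94, and it too fell in Cct5 KD (−0.47). Lsm8, of the U6 ring, rose from 12.6 and 13.9 to 22.2 and 21.8 FPKM (0.69). Among catalytic factors Bud31 rose by 0.97, from 42.9 and 45.5 to 91.4 and 83.4 FPKM, and Xab2 fell by 0.85, from 24.6 and 25.2 to 12.6 and 14.2 FPKM. In the minor spliceosome Zcrb1 rose by 1.33, from 25.6 and 23.6 to 63.4 and 62.8 FPKM, and Zmat5 fell by 0.75, from 18.4 and 22.7 to 12.2 and 11.4 FPKM. The rule names 1 rise and 1 fall per set, so nothing is read from their mix. Over the whole sets, 13 of 25 catalytic genes fell and 8 rose, and 5 of 10 minor spliceosome genes fell and 4 rose. In the tri-snRNP set of Eftud2 and Lsm8, 9 of 18 fell and 4 rose. These calls are on the deposited scale, where 32.0% of all genes fell and 49.3% rose.

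Of 7 tested kinases that phosphorylate SR proteins, 4 fell and 2 rose in Cct7 KD on the deposited scale (32.0% and 49.3% of all genes). The largest fall and the largest rise were named by rule. Clk1 fell from 60.4 and 62.9 to 32.2 and 31.8 FPKM (−0.93) and Clk3 rose from 20.3 and 21.6 to 39.0 and 38.7 FPKM (0.86), each with groups well apart and adjusted p of 6.7e-06 and 1.6e-05 by limma. Luc7l3, a U1-associated factor, fell by 0.76 and Tia1, which aids U1 at weak sites, rose by 0.61. Around the exon junction complex, Eif4a3 fell by 0.43, from 149.8 and 154 to 114 and 111 FPKM, and Sap18 rose by 0.71, from 24.7 and 26.2 to 42.4 and 41.9 FPKM.

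The widest changes of the pathway list were in cell-type regulators. Esrp1, an epithelial splicing factor, was at 31.5 and 29.9 FPKM in Cct7 KD Ctr and 3.85 and 4.24 FPKM in Cct7 KD, a change of −2.65 (adjusted p = 2.2e-06 by limma), and fell by 1.94 in Cct5 KD on the deposited scale. Mbnl3, of the muscleblind family, was at 1.67 and 1.42 FPKM in Cct7 KD Ctr and 7.27 and 7.03 FPKM in Cct7 KD, a rise of 1.68 (adjusted p = 1.6e-05 by limma). Both changes are larger than any among the 66 genes, whose range in Cct7 KD was −0.90 to 1.46.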

How the data were processed

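Poly(A) RNA was sequenced from strand-specific (dUTP) libraries on a DNBSEQ-T7, per the labels' protocols. The authors deposited FPKM of each gene as 2 tables, a knockdown and its control in each, and the submitters' processing notes name HTSeq and mm10. Not given in the sources used here are the aligner, annotation, strand setting, gene lengths and versions. Listed were 21055 and 20909 entries; IDs that occur repeatedly (8 and 6) were left out, and 19896 were in both. Symbols and coordinates are from GENCODE M21 (GRCm38, also called mm10). Depth was taken from the step at which at least 95% of low values were whole within 0.05 fragments.

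The 66 genes, the list of 142 other splicing genes and the pairs were chosen with earlier results of these data known. Genes that average 1 FPKM or more were tested with limma 3.58.1 (R 4.3.3, eBayes with trend) on log2(FPKM + 1), each knockdown against its own control, the controls against each other, and the difference over all 8 libraries. The fits were tested on simulated data. Some genes, among them Hnrnpc, Hnrnpa2b1, Snrpg and Snrpd1, are described outside the naming rule. The rest were named by rule. Per role these were up to 3 of the largest called rises and falls in Cct7 KD whose libraries do not overlap, with Sf3b1, Srsf2, Prpf8, Snrpb, Snrpd2 and U2af1, and per set of the pathway list 1 rise and 1 fall; 1 gene so named counts among the 66 but is not reported here. Other settings were median-of-ratios scaling, a common FPKM total, no filter, a smaller pseudocount (0.1), a minimum fold of 1.5, a replicate block, all 8 libraries in 1 fit, the remainder, and leaving out each library.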

Additional observations from a re-analysis of the deposited data

Results flagged for a closer look

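The change against control differed between Cct5 KD and Cct7 KD in all 66 genes by limma on the deposited scale, always with the higher value in Cct5 KD, as it did in 83.8% of all genes tested. This direction is largely set by how the columns are built, since each Cct5 KD value of the 66 is at least 1.125 times its namesake in Cct7 KD, and the fit treats these linked libraries as independent, so nothing is read from it. Snrpg had 128 FPKM in both Cct7 KD libraries and in both Cct5 KD Ctr libraries, against 212 and 211 FPKM in Cct5 KD. After median-of-ratios scaling 29 of the 66 differed.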

How the results depend on the processing

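Counts among the 66 genes turned on the scale and the fold. In Cct5 KD, against 56 higher and 5 lower as deposited, median-of-ratios scaling gave 5 and 58, a common FPKM total 12 and 47, the remainder 12 and 44, and a fold of at least 1.5 gave 14 and 0. In Cct7 KD, against 16 and 35, scaling gave 6 and 56, a common total 24 and 30, and the fold 3 and 8. The difference between knockdowns, called in 66, was called in 29 and 39 under these scalings. The fit of all 8 libraries gave 1 higher and 7 lower between the controls, where separate fits called 0. Of the 137 other splicing genes in Cct5 KD (116 higher, 15 lower), scaling gave 23 and 103, a common total 42 and 79, the remainder 39 and 87, and the fold 47 and 2. In Cct7 KD (42 and 74) the fold gave 15 and 17, scaling 22 and 99, and a common total 49 and 56. Leaving out each library gave 10 to 16 higher and 30 to 34 lower of the 66 in Cct7 KD, and 55 to 56 and 4 to 6 in Cct5 KD. Scalings multiply every FPKM value of a library by 1 factor, which on the log2(FPKM + 1) scale shifts low genes less. Median-of-ratios scaling moved the median of all genes from 0.15 to −0.07 in Cct7 KD and from 0.68 to −0.05 in Cct5 KD. A common FPKM total moved it to 0.21 in Cct7 KD and to 0.17 in Cct5 KD. The cause of the other differences was not tested.

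Of the values for 47 named genes under these settings, 875 kept direction and call, 15 gained and 27 lost a call, and 70 changed sign. After median-of-ratios scaling the log2 change in Cct7 KD was −0.12 for Prpf19, −0.16 for Sf3a3, −0.14 for Snrpb, −0.080 for Snrpb2 and −0.13 for Srsf6. In Cct5 KD under the same scaling it was −0.76 for Luc7l3, −0.33 for Prpf19, −0.61 for Prpf38b, −0.40 for Sf3a3, −0.63 for Sf3b1, −0.81 for Sf3b3, −0.62 for Sf3b5, −0.69 for Snrpa, −0.27 for Snrpb, −0.23 for Snrpb2, −0.33 for Snrpc, −0.71 for Snrpd2, −0.65 for Snrpe, −0.65 for Srsf2, −0.40 for Srsf4, −0.47 for Srsf6, −0.68 for Srsf7, −0.028 for Srsf9, −0.67 for U2af1, −0.60 for U2af2 and −0.10 for Wdr77. In the remainder it was −0.17 for Bud31, −0.027 for Lsm8, −0.097 for Luc7l3, −0.48 for Prpf19, −0.64 for Prpf38b, −0.12 for Sap18, −0.53 for Sf3a3, −0.028 for Sf3b1, −1.25 for Sf3b3, −0.21 for Sf3b5, −0.22 for Snrpa, −0.52 for Snrpb, −0.11 for Snrpb2, −0.15 for Snrpd2, −0.025 for Snrpe, −0.86 for Srsf2, −0.10 for Srsf4, −0.995 for Srsf6, −0.60 for Srsf7, −0.15 for Srsf9, −0.12 for U2af1, −0.71 for U2af2 and −0.75 for Wdr77. With a common total it was −0.52 for Luc7l3, −0.094 for Prpf19, −0.37 for Prpf38b, −0.16 for Sf3a3, −0.39 for Sf3b1, −0.57 for Sf3b3, −0.40 for Sf3b5, −0.45 for Snrpa, −0.033 for Snrpb, −0.088 for Snrpc, −0.47 for Snrpd2, −0.41 for Snrpe, −0.41 for Srsf2, −0.16 for Srsf4, −0.23 for Srsf6, −0.43 for Srsf7, −0.43 for U2af1 and −0.35 for U2af2. With each library left out in turn, Clk1 ranged from −0.032 to 0.0032 and Prpf40b from −0.057 to 0.026 in Cct5 KD.

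Replicate numbers did not pair the libraries (correlation of deviations −0.0385 in Cct7 KD, −0.0144 in Cct5 KD and 0.0445 between controls, over 2 pairs each). With the number as a replicate block, 13 of the 66 were higher and 33 lower in Cct7 KD, 56 and 7 in Cct5 KD, and all 66 differed between the knockdowns. Depth limits Srsf12 most, at 1.12 FPKM in the controls, and for Cct5 KD no depth could be found.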
